A study of Mus musculus with 72 samples.

Results

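A set of 34 genes that act in G2 and mitosis, the end of the cell cycle, was followed in mouse B-lymphoma cells exposed to CX5461, everolimus or both drugs. The genes were chosen by name from a list, with earlier results of these data known. Their counts below are therefore a description and not an independent test of the list. They are 34 of the 38951 genes listed in any of the 4 count tables of the series and of the 28369 listed in all 4. The cells come from the Eμ-Myc mouse, whose Myc transgene is driven by an immunoglobulin heavy chain enhancer in B cells, and carry a Gfp vector (MSCV). CX5461 blocks RNA polymerase I, the enzyme that makes ribosomal RNA. Everolimus blocks mTORC1, a growth-promoting kinase complex.

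In the acute setting, C57BL/6 mice carrying cells of clone 4242 received 35 mg/kg of CX5461, 5 mg/kg of everolimus, the combination of both at these doses, or vehicle. Treatment was on day 10 after transplantation, and cells, from a tissue the labels do not name, were taken 2 h later from 6 mice a group. In the relapse setting, mice carrying clone 107 were treated with CX5461, everolimus, the combination or vehicle until the lymphoma returned, and cells from lymph nodes of 3 mice a group were grown for 2 to 3 passages. The lines from vehicle mice are called naive here. Cytoplasmic RNA (input) and RNA from fractions with at least 4 ribosomes (polysomal) were sequenced from each mouse or line, which gave 72 libraries. Each setting rests on 1 clone, each line comes from 1 mouse, the age and sex of the mice are not given in the labels, and whether the relapse lines were still exposed to drug in culture is not given either. The p-values therefore measure the spread between mice or lines of 1 clone.

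Entry into mitosis is driven by Cdk1 bound to cyclin B, which is switched on by Cdc25 phosphatases and opposed by Wee1-type kinases. Polo-like and Aurora kinases then build the spindle, the kinetochore joins chromosomes to microtubules, and the checkpoint kinases hold the anaphase-promoting complex back until every chromosome is attached. Most of these genes are transcribed late in the cycle under B-Myb, FoxM1 and the MuvB complex, so their summed RNA level also follows the share of dividing cells. In bulk RNA, fewer cells in G2 and mitosis and less RNA per cell cannot be told apart.

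Library totals ran from 11.5 to 30.4 M counts, and the median count of a member in a relapse library was 1111 for input and 2625 for polysomal RNA. All 34 passed the filter on low counts in each table. Levels are given as CPM, a gene's counts relative to the library total after TMM scaling. The relapse lines expressed the 9 B cell markers at a summed 1200 to 1910 CPM in the input, whereas the 12 T cell markers summed to 2.85 to 12.4 CPM and the 10 myeloid markers to 5.26 to 8.17 CPM. The acute samples held other cells as well, with stromal and endothelial markers at a summed 1020 to 2100 CPM and T cell markers at 52.5 to 78.8 CPM in combination mice against 76.2 to 105 CPM in vehicle mice. A pair of polysomal libraries stood apart, those of CX5461 lines 14 and 39, which form a separate run of columns in the deposited table (columns listed in alphabetical order) that holds no naive line. In the acute input, 3 drug-treated libraries had over 10% of their counts on Gm26870 and Gm10800, and in the acute polysomal RNA 3 vehicle libraries and 1 CX5461 library had over 10% on Lars2 and Yam1.

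Per kilobase of transcript, the input levels of the members spanned a wide range in naive lines. Plk1, the Polo-like kinase that drives mitotic entry and spindle assembly, was at 102 ± 10.2 CPM per kb (SD, n = 3), and Cdc20, the activator of the anaphase-promoting complex, followed at 86.8 ± 13.4 CPM per kb, with overlapping lines. Cyclin A2 (Ccna2) at 75.5 ± 10.6 CPM per kb and Ube2c, the ubiquitin-conjugating enzyme of the complex, at 73.3 ± 7.26 CPM per kb did not differ beyond their spread either. At the low end were Cenpe at 3.83 ± 1.03 CPM per kb and the chromokinesin Kif4 at 3.27 ± 1.29 CPM per kb, again within their spread. In vehicle mice the order differed, with Top2a, the topoisomerase that untangles chromosomes, at 128 ± 9.08 CPM per kb (SD, n = 6) ahead of Cdc20 at 85.1 ± 11.2 CPM per kb.

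The members share promoter letters. RefSeq promoter windows (GRCm38.p6, 250 bases before to 50 after the start) matched 28 of the 34 genes. The hexamer TTTGAA (or the variant TTCGAA), the core of the cell cycle homology region bound by MuvB, lay within 50 bases of the start on either strand in 21 of the 28 (75%), against 5.29% of 27025 genes. CCAAT, the letters bound by NF-Y, lay in the same window in 17 of 28 (60.7%), against 13.9% of genes. The windows of 6 genes are shown, from 120 bases before to 30 after the start, because they span the range of responses described below, with the hexamer TTTGAA and the pentamer CCAAT in capitals on either strand (read as TTCAAA for the hexamer and as ATTGG for the pentamer on the other). Cenpf (chr1:189688057-189688206, minus strand), Aspm (chr1:139454653-139454802, plus strand), Kif23 (chr9:61946770-61946919, minus strand) and Prc1 (chr7:80294331-80294480, plus strand) belong to genes that fell in relapse lines, Nek2 (chr1:191821353-191821502, plus strand) fell in the polysomal RNA, and Cdc20 (chr4:118437314-118437463, minus strand) passed the test in no drug comparison with a control.
Cenpf: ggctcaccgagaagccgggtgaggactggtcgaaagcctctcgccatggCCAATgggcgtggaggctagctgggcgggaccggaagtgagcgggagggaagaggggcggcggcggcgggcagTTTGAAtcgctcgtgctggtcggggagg
Aspm: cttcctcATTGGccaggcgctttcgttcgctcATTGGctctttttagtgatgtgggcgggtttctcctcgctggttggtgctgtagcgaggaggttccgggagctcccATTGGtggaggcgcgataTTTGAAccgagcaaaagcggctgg
Kif23: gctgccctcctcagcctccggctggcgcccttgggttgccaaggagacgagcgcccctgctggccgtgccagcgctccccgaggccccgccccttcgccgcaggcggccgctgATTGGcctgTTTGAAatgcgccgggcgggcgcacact
Prc1: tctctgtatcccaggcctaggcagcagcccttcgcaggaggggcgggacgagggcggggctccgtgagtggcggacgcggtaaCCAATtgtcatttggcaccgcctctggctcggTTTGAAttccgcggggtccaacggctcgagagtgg
Nek2: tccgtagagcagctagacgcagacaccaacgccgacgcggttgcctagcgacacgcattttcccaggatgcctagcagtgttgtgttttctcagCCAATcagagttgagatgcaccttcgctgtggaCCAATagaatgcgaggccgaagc
Cdc20: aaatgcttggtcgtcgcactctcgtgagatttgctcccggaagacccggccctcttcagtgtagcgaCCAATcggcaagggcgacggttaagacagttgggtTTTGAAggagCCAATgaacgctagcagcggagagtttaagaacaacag
In Cenpf and Kif23 the hexamer began 3 bases into the transcript, in Aspm 7 bases into it, in Prc1 5 bases before the start and in Cdc20 18 bases before it. The Nek2 window held 2 CCAAT boxes and neither hexamer. Cenpf, Aspm, Kif23 and Prc1, which fell, and Cdc20, which did not pass, thus carry the same hexamer near the start, and a match in these windows is a description and not a bound site.

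Whether lymphoma that returned under drug expresses fewer G2 and mitosis genes was read from the relapse input. In everolimus lines 10 of 34 members were lower than in naive lines by edgeR's quasi-likelihood test with Benjamini-Hochberg adjustment over all genes (adjusted p under 0.05) and none was higher, with 5.46% of 14474 genes lower. In combination lines 9 were lower and none was higher, with 6.31% of genes lower, and in CX5461 lines 4 were lower and none higher, with 3.76% of genes lower. The median log2 fold change of the members was -0.25 in CX5461 lines, -0.55 in everolimus lines and -0.39 in combination lines, against -0.03, -0.01 and -0.02 over all genes. The mean log2 CPM of the 34 members was 5.70, 5.78 and 5.76 in CX5461 lines 14, 20 and 39, 5.74, 5.44 and 5.46 in everolimus lines 4, 12 and 26, 5.39, 5.42 and 5.76 in combination lines 8, 9 and 31, and 6.25, 5.94 and 5.84 in naive lines 6, 33 and 38. The 9 drug lines lay below the 3 naive lines, and naive line 6 was the highest of the 12. The decrease was uneven across the list: Kif20b, Mki67 and Cenpf were lower in all 3 drug groups, while Cdc20, Plk1, Aurkb, Cdc25b and Bub1b passed in none.

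**Figure D1:**
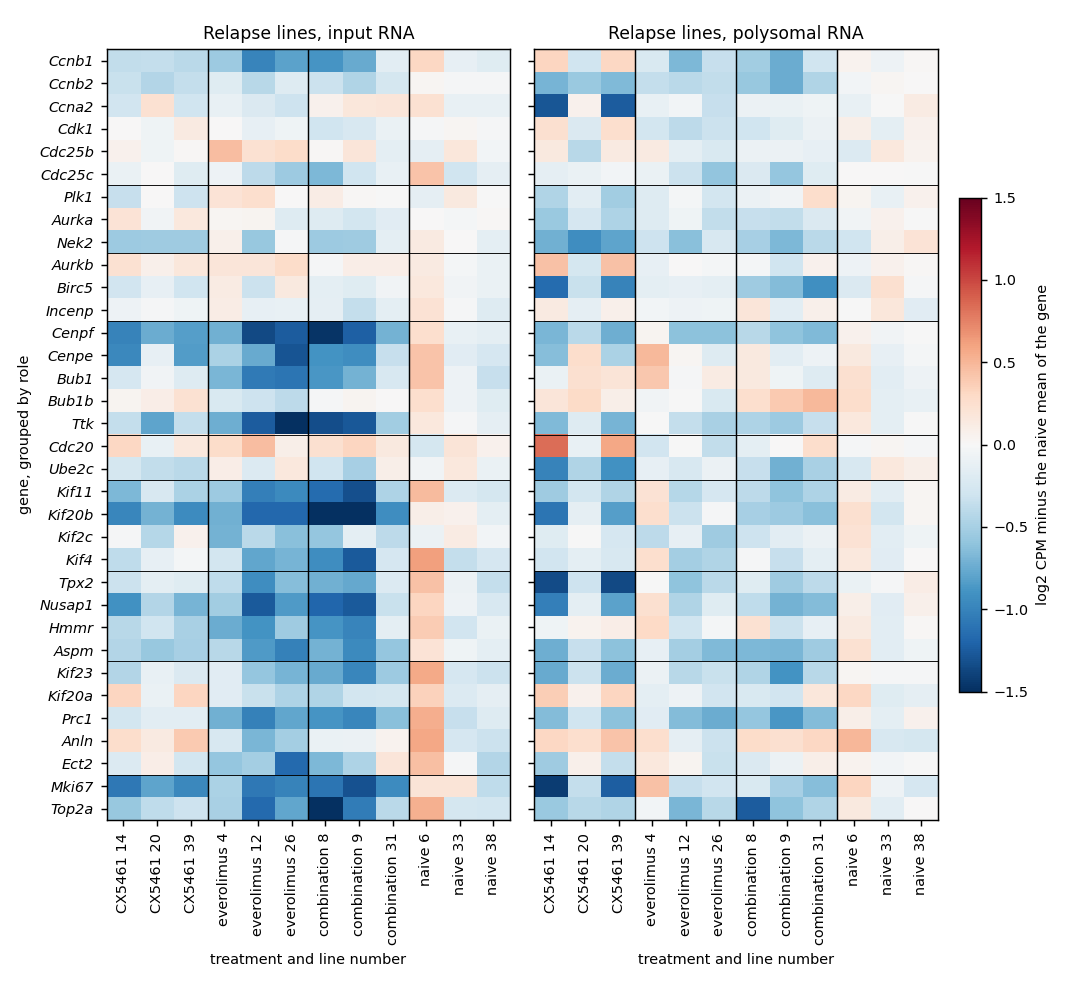
Levels of the 34 genes (rows, grouped by role) in the 12 relapse lines (columns, by treatment and line number), as log2 CPM minus the naive mean of that gene, for input (left) and polysomal RNA (right), with colours ending at 1.5 in either direction. Blue cells mark lower levels. In the input the rows of Cenpf, Kif20b and Mki67 are blue in all 9 drug lines and Top2a is lowest in combination line 8 (76.8 CPM, against 232 to 405 CPM in naive lines), while rows such as Cdc20, Plk1 and Aurkb stay near white or red.

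Among kinetochore and checkpoint genes, Cenpf, Ttk and Bub1 fell. Values are in order of line number here and below. Cenpf, a large protein of the outer kinetochore, had 29, 34.5 and 32.6 CPM in CX5461 lines, 35.3, 22.7 and 24.4 CPM in everolimus lines, and 21, 24.8 and 35.4 CPM in combination lines. Its values in naive lines were 69.3, 53.8 and 52.3 CPM. Every drug line lay below every naive line, with log2 fold changes of -0.87 ± 0.21 (SE, adjusted p = 0.0284) for CX5461, -1.09 ± 0.21 (adjusted p = 0.0161) for everolimus and -1.11 ± 0.21 (adjusted p = 0.00717) for the combination. Ttk, the Mps1 kinase that starts the spindle checkpoint, had 10.7, 7.92 and 10.7 CPM in CX5461 lines, 8.27, 5.78 and 4.65 CPM in everolimus lines, and 5.46, 5.7 and 9.59 CPM in combination lines. In naive lines it had 15.3, 13.6 and 12.5 CPM. The groups did not overlap, and Ttk passed for everolimus (-1.15 ± 0.26, adjusted p = 0.0215) and the combination (-1.0 ± 0.26, adjusted p = 0.0265) but not for CX5461 (-0.50 ± 0.25, adjusted p = 0.272). Bub1, the kinase that recruits checkpoint proteins to kinetochores, had 23.6, 27.2 and 24.7 CPM in CX5461 lines, 17.6, 13.5 and 13.2 CPM in everolimus lines, and 15.4, 17.3 and 23.8 CPM in combination lines. The naive lines were at 37.9, 26.7 and 22.2 CPM. Bub1 passed for everolimus alone (-0.97 ± 0.21, adjusted p = 0.0201), where no line reached the lowest naive value, and the other drug groups overlapped the naive lines. The kinetochore motor Cenpe had log2 fold changes of -0.62, -0.83 and -0.73 for CX5461, everolimus and the combination and did not pass, and neither did the checkpoint kinase relative Bub1b at 0.12, -0.32 and 0.01.

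Of the motors, Kif20b, which acts in cytokinesis and has the lowest GC content of the 34 (39.4%), showed the largest log2 fold change of any member in the combination lines. It had 18.5, 22.4 and 19 CPM in CX5461 lines, 22.1, 16.2 and 16.2 CPM in everolimus lines, and 11.7, 12.4 and 19.1 CPM in combination lines. Its values in naive lines were 38.8, 38.1 and 32.9 CPM. All 9 drug lines were below the naive lines, with log2 fold changes of -0.87 ± 0.19 (adjusted p = 0.0182), -1.01 ± 0.19 (adjusted p = 0.0157) and -1.35 ± 0.20 (adjusted p = 0.0023) for CX5461, everolimus and the combination. Kif11, the motor that pushes the spindle poles apart, had 57.7, 78 and 66.2 CPM in CX5461 lines, 63.4, 45.5 and 47.5 CPM in everolimus lines, and 41.5, 36.9 and 66.9 CPM in combination lines. In naive lines it had 128, 80 and 76.8 CPM. It passed for everolimus (-0.87 ± 0.26, adjusted p = 0.047) and the combination (-0.97 ± 0.26, adjusted p = 0.0276), and CX5461 line 20 lay within the naive range. Kif2c, a motor that removes tubulin from microtubule ends, had 32.1, 24.2 and 34 CPM in CX5461 lines, 20, 24.6 and 21.1 CPM in everolimus lines, and 21.8, 29.4 and 24.8 CPM in combination lines. The naive lines were at 30.8, 35.5 and 31.7 CPM. Everolimus and combination lines lay below the naive lines, and the test passed for everolimus (-0.58 ± 0.16, adjusted p = 0.0372). Its log2 fold changes of -0.12 in CX5461 lines and -0.37 in combination lines did not pass, and Kif4 at -0.24, -0.65 and -0.83 did not pass in any drug group.

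The spindle proteins Aspm and Nusap1 and the cytokinesis genes Prc1 and Kif23 fell in some groups. Aspm, which holds the spindle poles together, had 46.1, 42.2 and 44.2 CPM in CX5461 lines, 46.7, 34.6 and 30.8 CPM in everolimus lines, and 38.2, 32.2 and 41.9 CPM in combination lines. Its values in naive lines were 72, 59.9 and 56.4 CPM. All drug lines were lower, and the test passed for everolimus (-0.75 ± 0.16, adjusted p = 0.02) and the combination (-0.75 ± 0.16, adjusted p = 0.0133). Prc1, which bundles the central spindle, had 25.2, 27.3 and 27.3 CPM in CX5461 lines, 18.5, 15.1 and 17.7 CPM in everolimus lines, and 16.5, 15.5 and 19.8 CPM in combination lines. In naive lines it had 44.5, 23.9 and 26.6 CPM. CX5461 lines overlapped the naive lines, while the everolimus lines (-0.89 ± 0.21, adjusted p = 0.0231) and combination lines (-0.87 ± 0.21, adjusted p = 0.0181) lay below them. Kif23, the motor of the centralspindlin complex, had 19.1, 24 and 22.3 CPM in CX5461 lines, 23, 17.3 and 16 CPM in everolimus lines, and 15.4, 13.2 and 17.8 CPM in combination lines. The naive lines were at 38.4, 21.8 and 20.8 CPM. The combination lines alone stayed below the naive lines throughout (-0.80 ± 0.23, adjusted p = 0.0407). Nusap1, a microtubule bundler, had 22.8, 31.8 and 26.5 CPM in CX5461 lines, 30, 17.9 and 23.9 CPM in everolimus lines, and 18.8, 17.9 and 34.1 CPM in combination lines. Its values in naive lines were 53.5, 40.8 and 36.3 CPM. All Nusap1 drug values were lower, and the combination passed (-0.89 ± 0.26, adjusted p = 0.0453). Neither Kif23 nor Nusap1 passed for CX5461 or everolimus. The spindle factor Tpx2, the microtubule-binding protein Hmmr, the cytokinesis motor Kif20a, the furrow scaffold Anln and the cytokinesis regulator Ect2 passed in no drug group, with log2 fold changes between -0.76 (Ect2, everolimus) and 0.21 (Anln, CX5461).

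The chromosome proteins were among the largest decreases. Mki67, whose protein coats mitotic chromosomes and serves as a marker of cycling cells, had 219, 265 and 235 CPM in CX5461 lines, 330, 219 and 230 CPM in everolimus lines, and 215, 186 and 240 CPM in combination lines. In naive lines it had 524, 524 and 354 CPM. All 9 drug lines were below the naive lines, with log2 fold changes of -0.97 ± 0.20 (adjusted p = 0.0132), -0.85 ± 0.20 (adjusted p = 0.0231) and -1.13 ± 0.20 (adjusted p = 0.00503) for CX5461, everolimus and the combination. Top2a had 188, 215 and 225 CPM in CX5461 lines, 200, 125 and 163 CPM in everolimus lines, and 76.8, 135 and 212 CPM in combination lines. The naive lines were at 405, 233 and 232 CPM. The Top2a groups did not overlap either, but the spread was wide and no drug group passed (combination -1.04 ± 0.33, adjusted p = 0.0541).

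Of the cyclins of mitotic entry, Ccnb1 and Ccnb2 fell in 1 drug group each. Ccnb1, cyclin B1, had 39.5, 39.8 and 38.4 CPM in CX5461 lines, 34.8, 25.5 and 29.1 CPM in everolimus lines, and 27.6, 30.1 and 45.5 CPM in combination lines. Its values in naive lines were 63, 46.7 and 44.7 CPM. It passed for everolimus (log2 fold change -0.79 ± 0.20, adjusted p = 0.0291), and combination line 31 lay within the naive range. Ccnb2, cyclin B2, had 65.8, 60.9 and 64.5 CPM in CX5461 lines, 73.1, 62.1 and 72.2 CPM in everolimus lines, and 66.3, 60.4 and 69 CPM in combination lines. In naive lines it had 84.4, 82.1 and 82.1 CPM. All Ccnb2 drug values were below the naive values, and CX5461 passed (-0.38 ± 0.11, adjusted p = 0.0478). Their partner Cdk1 had log2 fold changes of 0.03, -0.06 and -0.22, and Ccna2 had -0.11, -0.22 and 0.13, for CX5461, everolimus and the combination. The phosphatases Cdc25b and Cdc25c, the kinases Plk1, Aurka and Nek2, the chromosomal passenger genes Aurkb, Incenp and Birc5, and Ube2c did not pass in the input, with log2 fold changes between -0.54 (Nek2, CX5461) and 0.32 (Cdc25b, everolimus). Cdc20 had 192, 143 and 172 CPM in CX5461 lines, 187, 213 and 164 CPM in everolimus lines, and 183, 193 and 171 CPM in combination lines. The naive lines were at 129, 176 and 162 CPM. The Cdc20 groups overlapped, with log2 fold changes of 0.12 ± 0.15, 0.27 ± 0.15 and 0.23 ± 0.15, against -0.87 to -1.11 for Cenpf.

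**Figure D2:**
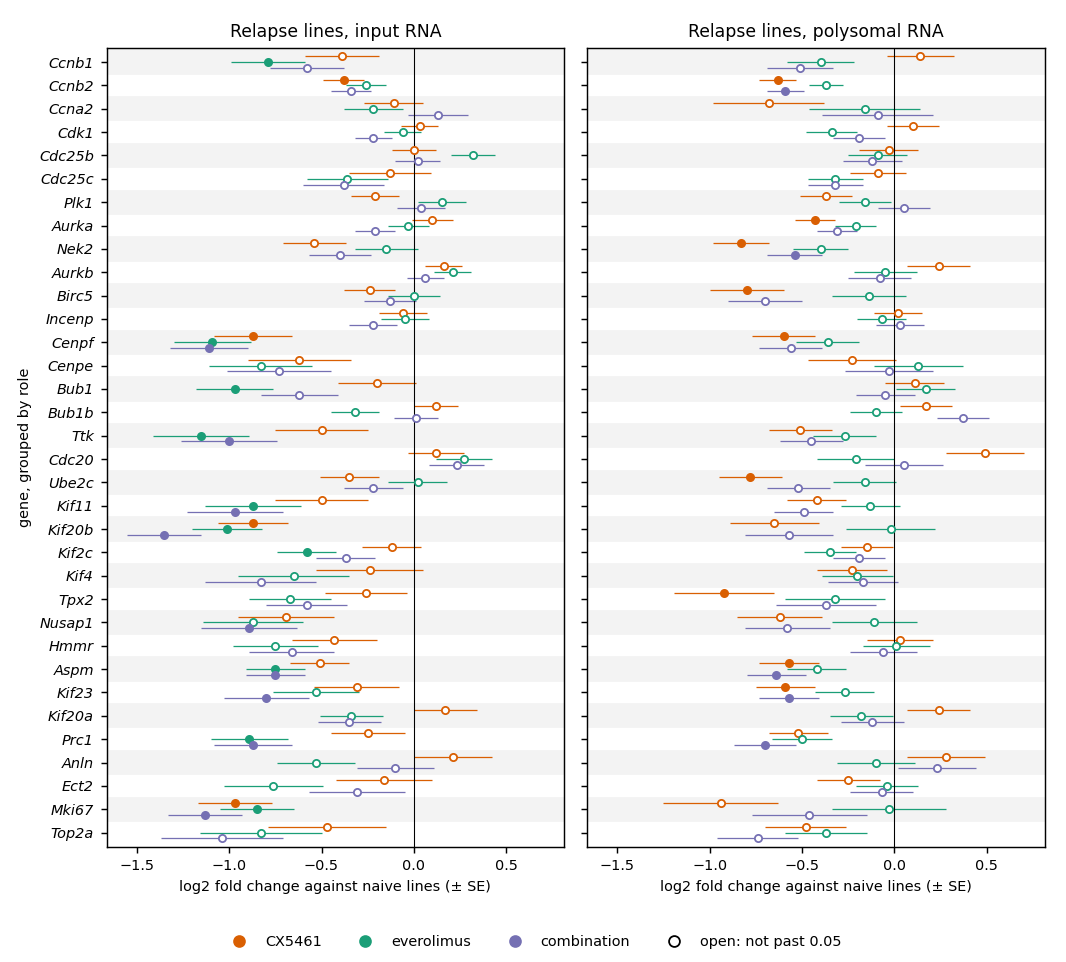
Log2 fold change of each gene against naive lines (points, ± SE) for CX5461, everolimus and combination lines in input (left) and polysomal RNA (right), with filled points for adjusted p under 0.05. In the input, filled points reach -1.35 (Kif20b, combination) and none lies above 0, and in the polysomal RNA no everolimus point is filled.

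The log2 fold changes ran with the base composition of the transcripts. Across the 34 genes, the Spearman correlation between the log2 fold change and the GC content of the transcript was 0.54 for CX5461, 0.85 for everolimus and 0.66 for the combination in the relapse input, and over 9348 genes it was 0.35, 0.69 and 0.52. With transcript length the values were -0.45, -0.57 and -0.58 for the members and 0.01, -0.25 and -0.17 over all genes. Cenpf (11.13 kb, 43.3% GC), Mki67 (10.06 kb, 46.6%), Aspm (9.867 kb, 44.3%) and Kif20b (5.564 kb, 39.4%), which fell, have long transcripts, and Cdc20 (1.793 kb, 55.6%), Plk1 (2.199 kb, 56%) and Aurkb (1.95 kb, 52.5%), which did not pass, have shorter and more GC-rich ones. In length, other members departed from this order, such as Ttk (2.871 kb, 43%), which fell, and Cdk1 (4.375 kb, 47.8%), which did not pass. In GC content Ttk lay close to Cenpf. With the GC correction described next, Ttk did not pass for everolimus (adjusted p = 0.108) or the combination (adjusted p = 0.0604). When a trend with GC content was removed from each library, 1 member, Cenpf (-0.70 ± 0.15, adjusted p = 0.043), stayed past the threshold for everolimus and the median became -0.33. With the same correction 8 members were lower for the combination, among them Kif20b (-0.92 ± 0.13, adjusted p = 0.00155) and Mki67 (-1.0 ± 0.17, adjusted p = 0.0037), and 5 for CX5461. The correction also takes out any drug effect that runs with GC content, and whether the trend came from library preparation or from the cells was not tested.

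**Figure D3:**
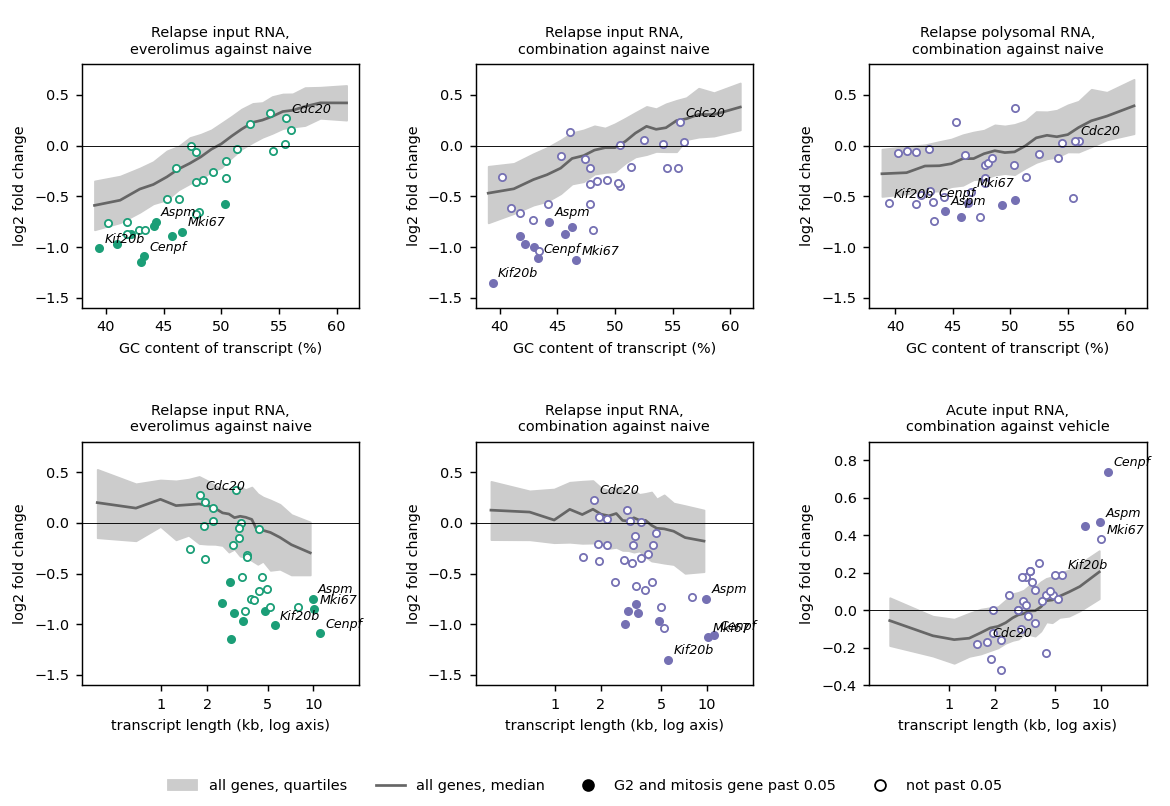
Log2 fold change (vertical) against GC content of the transcript in percent (top) or transcript length in kb on a log axis (bottom) for the 34 genes, filled where adjusted p was under 0.05, over the median (line) and quartiles (band) of all well-counted genes, in 4 comparisons with controls named above the panels. In the relapse input the members follow the all-gene rise with GC content, mostly below its median line, while in acute combination mice the long transcripts of Cenpf (0.74) and Aspm (0.47) are the highest.

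The relapse calls also depended on which lines were in the fit. Without everolimus line 12 or line 26 no member passed for everolimus, without naive line 6 the count was 2 and without naive line 33 it was 6, although the median stayed between -0.69 and -0.30 over the 12 fits that each left out 1 line. For the combination the count was 4 without line 8, 3 without line 9, 15 without line 31 and 5 without naive line 6. For CX5461 it was 0 without line 14, without line 39 or without naive line 33. In the combination lines, Kif20b, Mki67 and Cenpf passed in all 12 of these fits. Ccnb2 in CX5461 lines lost its call in 11 of the 12, Kif11 in everolimus lines in 10, Nusap1 in combination lines in 9 and Kif2c in everolimus lines in 8. The input columns form 2 runs, with naive lines 33 and 38, CX5461 lines 14 and 39, everolimus line 12 and combination lines 8 and 9 in one, and the other lines in the other. Within the runs the mean log2 level of the 34 genes differed from naive by -0.16 and -0.47 for CX5461, -0.45 and -0.65 for everolimus, and -0.49 and -0.49 for the combination, with 1 or 2 lines a group. With the run as a term in the fit, 8 members passed for CX5461, 23 for everolimus (2 higher) and 18 for the combination. The 2 higher were Cdc20 (0.37 ± 0.10, adjusted p = 0.0162) and Cdc25b (0.36 ± 0.12, adjusted p = 0.0351). Bub1b was among the lower (-0.34 ± 0.11, adjusted p = 0.0405), and none of these 3 passed without the term. The SE of Cenpf for everolimus was 0.15 with the term and 0.21 without it. The share of all genes called with the term is not given here, so these counts cannot be set against it.

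Between drug groups the relapse input gave no call among the members. Everolimus against CX5461 had a member median of -0.22 with 4.04% of genes called, the combination against CX5461 a median of -0.23 with 0.0207% called, and the combination against everolimus a median of -0.03 with 0.719% called. At an unadjusted p under 0.05, 12, 5 and 3 members passed in these comparisons, and DESeq2 called 3, 0 and 0. For everolimus against CX5461, other settings called lower members: 9 with the run of columns as a term, 5 without naive line 6, 3 with the compared groups alone, and 2 with no count filter or with the GC correction.

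In the polysomal RNA members were called in CX5461 and combination lines. In CX5461 lines 9 members were lower than in naive lines and none was higher (8.08% of 14797 genes were lower), in combination lines 5 were lower and none higher (5.22% of genes lower), and in everolimus lines none passed (0.115% of genes called in either direction, 6 members at an unadjusted p under 0.05, 1 by DESeq2). The member medians were -0.40 for CX5461, -0.17 for everolimus and -0.31 for the combination, against -0.05, 0 and 0.02 over all genes. Mean log2 CPM of the 34 members was 6.92, 7.16 and 6.98 in CX5461 lines, 7.34, 7.06 and 7.04 in everolimus lines, 7.09, 6.96 and 7.11 in combination lines, and 7.41, 7.28 and 7.34 in naive lines. All CX5461 and combination lines lay below the naive lines, and everolimus line 4 lay within their range. Without CX5461 lines 14 and 39, the libraries that stood apart, line 20 was alone in its group and 15 members passed for the combination. With the run of columns as a term, 1 member passed for CX5461, Nek2 (-0.75 ± 0.17, adjusted p = 0.0256). For the combination 17 passed with that term, and of these Bub1b was higher (0.30 ± 0.10, adjusted p = 0.0385). Leaving out 1 line at a time, the CX5461 count was 2 without CX5461 line 14 or 39 or naive line 33 or 38, 5 without naive line 6 and 21 without CX5461 line 20. The combination count was 1 without combination line 9 or 31 or naive line 33 or 38, 2 without combination line 8, naive line 6 or CX5461 line 39, 3 without everolimus line 26, and 15 without CX5461 line 20. Within the first run of polysomal columns, which holds naive line 6, the mean member level differed from naive by -0.25 for CX5461 line 20, -0.35 for everolimus line 12 and -0.38 for combination lines 9 and 31, and within the second, with naive lines 33 and 38, by -0.12 for everolimus lines 4 and 26 and -0.23 for combination line 8.

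The polysomal calls fell on partly other genes than those of the input. Ccnb2 had 102, 113 and 105 CPM in CX5461 lines, 130, 125 and 129 CPM in everolimus lines, and 112, 98.7 and 121 CPM in combination lines. Its values in naive lines were 161, 170 and 167 CPM. No drug line reached the naive range, with log2 fold changes of -0.63 ± 0.10 (adjusted p = 0.00421) for CX5461, -0.37 ± 0.09 (adjusted p = 0.232) for everolimus and -0.59 ± 0.10 (adjusted p = 0.00555) for the combination. The CX5461 and combination calls held when any 1 line was left out. With the run of columns as a term the CX5461 call was lost (-0.52 ± 0.14, adjusted p = 0.0523) and the combination call stayed (-0.57 ± 0.09, adjusted p = 0.00102). Nek2, a kinase that helps to separate the centrosomes, had 142, 123 and 136 CPM in CX5461 lines, 190, 152 and 199 CPM in everolimus lines, and 166, 147 and 177 CPM in combination lines. In naive lines it had 191, 250 and 271 CPM. Nek2 fell in CX5461 lines (-0.83 ± 0.15, adjusted p = 0.00948) and in combination lines (-0.54 ± 0.15, adjusted p = 0.0491), and everolimus line 26 lay within the naive range. Kif23 had 70.4, 95.4 and 71.5 CPM in CX5461 lines, 112, 89.6 and 95 CPM in everolimus lines, and 87.5, 64 and 89.1 CPM in combination lines. The naive lines were at 122, 118 and 118 CPM. All Kif23 drug values were below the naive values, and the test passed for CX5461 (-0.59 ± 0.16, adjusted p = 0.0304) and the combination (-0.57 ± 0.16, adjusted p = 0.0472), where the combination call was lost in 11 of 12 fits without 1 line.

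Aspm and Prc1 fell in the polysomal RNA of combination lines as in the input. Their calls there, and that of Nek2, were lost without combination line 9 or 31 or naive line 33 or 38, where Ccnb2 was the 1 member called. Aspm had 92.5, 121 and 101 CPM in CX5461 lines, 142, 108 and 97.8 CPM in everolimus lines, and 96.4, 96 and 107 CPM in combination lines. Naive lines had 181, 138 and 147 CPM. It passed for CX5461 (-0.57 ± 0.16, adjusted p = 0.0365) and the combination (-0.64 ± 0.16, adjusted p = 0.0349), and everolimus line 4 overlapped the naive lines. Prc1 had 77.1, 98.4 and 78.9 CPM in CX5461 lines, 107, 77.1 and 71.9 CPM in everolimus lines, and 80.5, 66.1 and 76.9 CPM in combination lines. Naive lines had 128, 109 and 126 CPM. No drug line reached the naive range, and the combination passed (-0.70 ± 0.17, adjusted p = 0.0266). In CX5461 lines the test was also passed by Tpx2, which activates Aurora A on the spindle (-0.92 ± 0.27), Birc5, survivin of the chromosomal passenger complex (-0.80 ± 0.20), Ube2c (-0.78 ± 0.17), Cenpf (-0.60 ± 0.17) and Aurka, the Aurora kinase of the spindle poles (-0.43 ± 0.11). Tpx2 had 176, 360 and 174 CPM in CX5461 lines, 443, 293 and 336 CPM in everolimus lines, and 394, 308 and 339 CPM in combination lines. Naive lines had 418, 441 and 482 CPM. Birc5 had 69.1, 122 and 76.3 CPM in CX5461 lines, 139, 141 and 139 CPM in everolimus lines, 106, 97.6 and 81.1 CPM in combination lines, and 132, 181 and 151 CPM in naive lines, so that line 20 was in both genes the CX5461 line closest to the naive lines. Ube2c had 130, 190 and 138 CPM in CX5461 lines, 239, 219 and 244 CPM in everolimus lines, 204, 158 and 186 CPM in combination lines, and 220, 289 and 275 CPM in naive lines, with line 20 again closest to the naive lines. With lines 14 and 39 left out, the log2 fold changes were -0.32 for Tpx2, -0.35 for Birc5, -0.46 for Ube2c, -0.42 for Cenpf and -0.27 for Aurka, and none passed. In the polysomal RNA the members' Spearman correlation with GC content was 0.14 for CX5461 and 0.26 for the combination, weaker than the 0.37 and 0.41 over all genes. For everolimus it was -0.20, opposite in sign to the 0.32 over all genes. With the GC correction 3 members, Ccnb2, Prc1 and Nek2, passed for the combination, while Aspm (adjusted p = 0.0584) and Kif23 (adjusted p = 0.052) did not. For CX5461 the correction took away the calls of Cenpf (adjusted p = 0.0985) and Aspm (adjusted p = 0.0994). It added Plk1 (-0.57 ± 0.15, adjusted p = 0.027) and Kif20b (-0.36 ± 0.11, adjusted p = 0.0472) as lower and Bub1 (0.43 ± 0.13, adjusted p = 0.0361) as higher.

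Between drug groups no member passed in the relapse polysomal RNA, with 4.01% of genes called for everolimus against CX5461, 0.00676% for the combination against CX5461 and 0.703% for the combination against everolimus. Unadjusted p-values under 0.05 were reached by 11, 2 and 4 members, and DESeq2 called 8, 2 and 1. Without CX5461 line 20 the counts were 19, 13 and 3.

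Without drug, the members were mostly enriched in polysomes in the relapse setting. In naive lines 25 of 34 were higher in polysomal than in input RNA and 3 were lower, with 23% of 15637 genes higher and 21.1% lower, and the member median was 0.85 on the log2 scale against -0.10 over all genes. The highest polysomal over input differences were those of Kif4 (1.65 ± 0.18, adjusted p = 6.93e-05), Kif23 (1.54 ± 0.15, adjusted p = 4.56e-05) and Tpx2 (1.52 ± 0.23, adjusted p = 0.000385), and the lower ones were Plk1 (-0.76 ± 0.11, adjusted p = 0.000321), Cdc20 (-0.67 ± 0.12, adjusted p = 0.00127) and Aurka (-0.40 ± 0.11, adjusted p = 0.012). Each of these is a relative position after scaling, since both libraries are scaled to the same total. In vehicle mice 16 members were higher in polysomes and 8 lower, with 24.7% of 16421 genes higher and 32.2% lower, and the median was 0.11. Nek2 (0.51 ± 0.05, adjusted p = 3.19e-09), Kif4 (0.46 ± 0.05, adjusted p = 2.74e-09) and Prc1 (0.43 ± 0.05, adjusted p = 4.04e-08) were the highest there and Aurka the lowest (-0.30 ± 0.05, adjusted p = 1.55e-05). Polysomal over input differences ran with GC content in naive lines (Spearman correlation -0.51 over the members, -0.65 over 9840 genes).

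**Figure D4:**
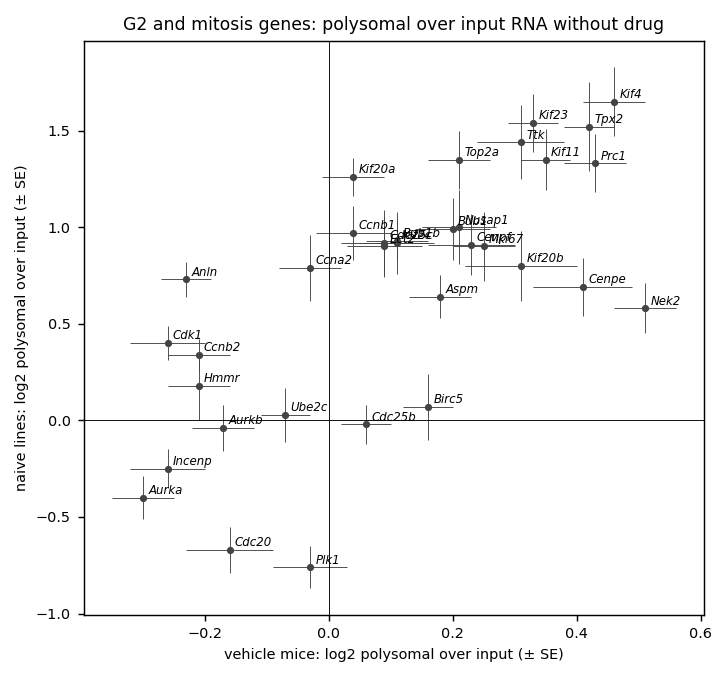
Log2 difference of polysomal over input RNA for each of the 34 genes in naive lines (vertical, ± SE, n = 3) against vehicle mice (horizontal, ± SE, n = 6). Kif4, Tpx2, Kif23 and Prc1 sit at the upper right in both settings, and Aurka, Cdc20, Plk1, Incenp and Aurkb are below 0 in both.

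No drug changed the ratio of polysomal to input RNA of any member past the threshold, in a setting where no gene at all passed (0% of 16421 genes in the acute and of 15637 in the relapse setting for each drug). In relapse lines the member medians of this translational efficiency were -0.06 for CX5461, 0.29 for everolimus and 0.19 for the combination, against -0.08, 0.02 and 0.02 over all genes. An unadjusted p under 0.05 was reached by 7, 14 and 11 members, and the share of all genes at that p is not given here. Of these members, all but Ccnb1 (0.44) were lower for CX5461. All but Cdc20 (-0.47) and Cdc25b (-0.39) were higher for everolimus, and all but Birc5 (-0.58) for the combination. Bub1 (1.14 ± 0.23, adjusted p = 0.366) and Kif20b (1.01 ± 0.26, adjusted p = 0.366) had the highest values for everolimus. Their log2 fold changes for everolimus were -0.97 and -1.01 for input and 0.17 and -0.02 for polysomal RNA. Both transcripts are GC-poor (41% and 39.4%). With the GC correction these changes were -0.46 and -0.47 for input and 0.22 and 0.01 for polysomal RNA. The part of GC content in the ratio was not tested. In acute mice the member medians were 0.05, 0.04 and 0.03, with 1, 5 and 3 members at an unadjusted p under 0.05. DESeq2 was not run on this ratio.

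At 2 h after treatment, the members were close to vehicle levels. In the acute input the mean log2 CPM of the 34 genes was 6.34 ± 0.07 in CX5461 mice, 6.43 ± 0.05 in everolimus mice, 6.41 ± 0.10 in combination mice and 6.34 ± 0.04 in vehicle mice (SD, n = 6 each). In combination mice 3 members, Cenpf, Cenpe and Aspm, were higher than in vehicle mice and none was lower, with 3.31% of 16055 genes higher. None passed in CX5461 mice (0.399% of genes called, 1 member at an unadjusted p under 0.05) or in everolimus mice (0.106% called, 9 members). In the polysomal RNA of combination mice 4 members, Cenpf, Aspm, Kif23 and Nek2, were higher and none lower, with 4.46% of 15374 genes higher, and none passed in CX5461 mice (0.878% called, 2 members at an unadjusted p under 0.05) or everolimus mice (0.15% called, 4 members). The polysomal log2 fold changes of everolimus mice had a median of 0.12 over the members, 2 of 34 below 0, and of 0 over all genes, 51% below 0.

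Cenpf in the input ran from 71 to 129 CPM in combination mice (median 96.5 CPM) and from 39.9 to 80.1 CPM in vehicle mice (median 59.8 CPM), and 3 of 6 combination mice, numbers 4, 5 and 6, lay above the highest vehicle mouse. Its log2 fold change was 0.74 ± 0.16 (adjusted p = 0.00985). In polysomal RNA it was 0.71 ± 0.20 (adjusted p = 0.036), where combination mice ran from 104 to 184 CPM (median 134 CPM) and vehicle mice from 47.2 to 132 CPM (median 87.4 CPM). Aspm ran from 72 to 112 CPM in combination mice (median 91.8 CPM) and from 47 to 81 CPM in vehicle mice (median 73.4 CPM) in the input, a log2 fold change of 0.47 ± 0.13 (adjusted p = 0.0364). Its polysomal level was 117 to 170 CPM in combination mice (median 143 CPM) and 65.3 to 132 CPM in vehicle mice (median 100 CPM), a log2 fold change of 0.60 ± 0.16 (adjusted p = 0.0254). For both genes the groups overlapped, and combination mice 4, 5 and 6 were the highest. Cenpe ran from 29.5 to 57.3 CPM in combination mice (median 41.2 CPM) and from 25.6 to 37.2 CPM in vehicle mice (median 33.9 CPM) in the input, with a log2 fold change of 0.45 ± 0.14 (adjusted p = 0.044). With the compared groups alone in the fit, the input calls of Cenpe (adjusted p = 0.069) and Aspm (adjusted p = 0.055) were lost.

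In the polysomal RNA, Kif23 was at 87.7 to 94.2 CPM in combination mice (median 88.8 CPM) and 64.9 to 84 CPM in vehicle mice (median 76.3 CPM), with no overlap (0.25 ± 0.07, adjusted p = 0.0326). Nek2 was at 205 to 226 CPM in combination mice (median 216 CPM) and 180 to 201 CPM in vehicle mice (median 193 CPM), again with no overlap (0.16 ± 0.05, adjusted p = 0.042). The Nek2 call was lost with no count filter (adjusted p = 0.176), with the compared groups alone (0.0538) and without everolimus mouse 3 (0.0548), and the Kif23 call with no count filter (0.0543). Plk1, whose transcript is GC-rich, was at 102 to 148 CPM in combination mice (median 114 CPM) and 117 to 178 CPM in vehicle mice (median 148 CPM) in the input (-0.32 ± 0.11, adjusted p = 0.0739).

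**Figure D5:**
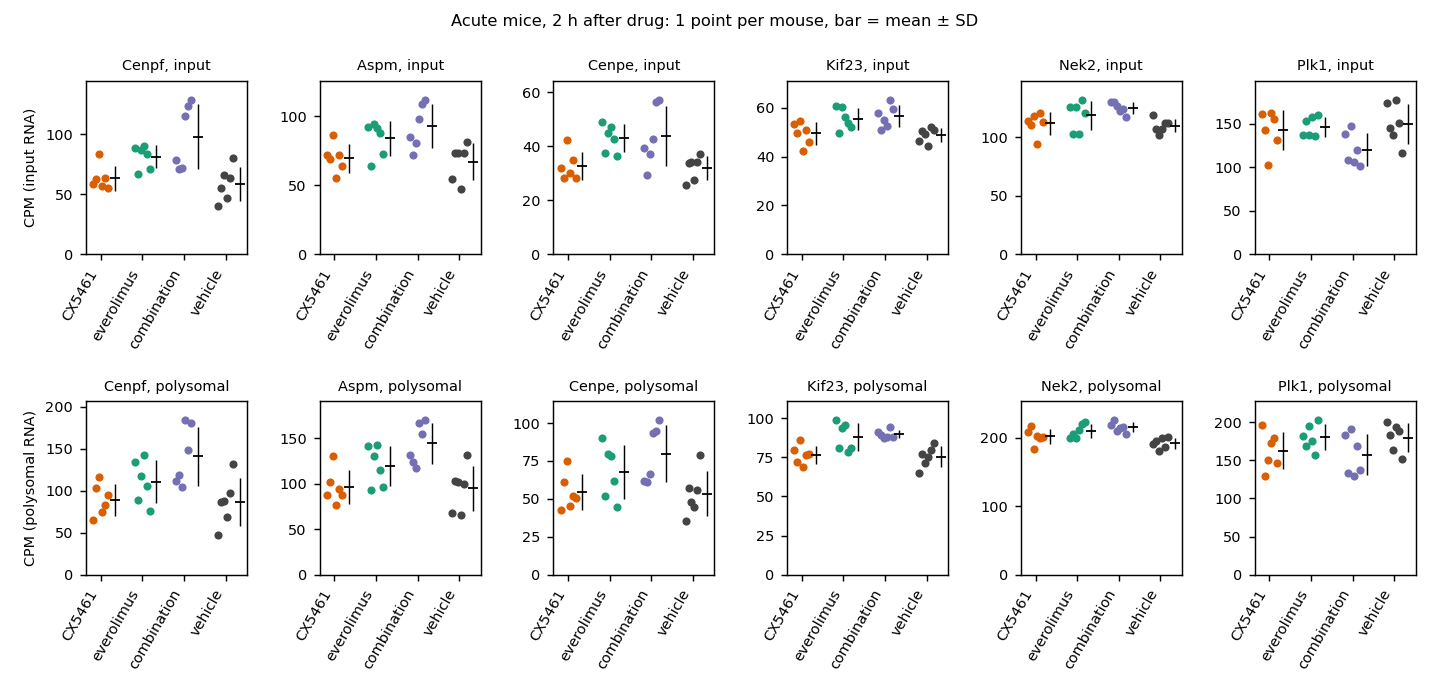
CPM of 6 members in the input (top) and polysomal RNA (bottom) of acute mice, 1 point a mouse with the mean ± SD beside it (n = 6 a group), by treatment. Cenpf reaches 129 CPM in combination mice against 80.1 CPM in vehicle mice in the input, and the combination mice do not overlap vehicle mice for Kif23 and Nek2 in the polysomal RNA.

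The acute rises ran with transcript length. Across the members, the Spearman correlation between the log2 fold change in combination mice and length was 0.72 for input and 0.71 for polysomal RNA. Over all well-counted genes it was 0.41 and 0.47. With a length correction the log2 fold changes in input and polysomal RNA were 0.52 and 0.46 for Cenpf and 0.28 and 0.39 for Aspm, each still past the threshold. Cenpe lost its call (0.29, adjusted p = 0.0571). The share of reads with no gene was 11.5% to 19.7% in the input of combination mice and 6.07% to 14.9% in that of vehicle mice. In the polysomal RNA it was 9.12% to 17% in combination mice and 5.79% to 26% in vehicle mice. T cell markers fell in the same comparison (8 of 12 in input and 9 of 12 in polysomal RNA), and the part of either in the member values was not tested. With the 4 polysomal libraries rich in Lars2 and Yam1 left out, the log2 fold change was 1.06 for Cenpf and 0.88 for Aspm, and Nek2 lost its call (adjusted p = 0.075).

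The combination differed from CX5461 alone in the acute polysomal RNA, where 13.1% of genes were higher and 10.5% lower. There 6 members were higher (Cenpf 0.66, Aspm 0.58, Cenpe 0.55, Incenp 0.37, Bub1b 0.28 and Kif23 0.23) and 3 lower (Ect2 -0.28, Ccna2 -0.21 and Birc5 -0.19), a share close to that of all genes. Everolimus was above CX5461 for Incenp, the scaffold of the chromosomal passenger complex (0.37 ± 0.11, adjusted p = 0.04), with 3.78% of genes higher. This call was lost with no count filter, with the compared groups alone, with the GC correction, without everolimus mouse 3, and without the 4 polysomal libraries over 10% Lars2 and Yam1. No member passed for the combination against everolimus (0.0195% called, 6 members at an unadjusted p under 0.05, none by DESeq2). In the acute input no member passed between drug groups. For the combination against CX5461 0.866% of genes were called, with 11 members at an unadjusted p under 0.05 and 5 by DESeq2. For everolimus against CX5461 0.473% were called, with 8 members at that p, and for the combination against everolimus 0% were called, with 3 members at that p and none by DESeq2 in either.

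The drug effects of the 2 settings differed for many members in a joint edgeR fit, a test added after the data were seen. For the combination, the effect in relapse lines was lower than in acute mice for 17 of 34 members in the input and 12 in polysomal RNA, and higher for none, with 14.6% of 17604 and 9.75% of 17037 genes lower. For everolimus 18 were lower in input and 3 in polysomal RNA (12.3% and 1.17% of genes lower), and for CX5461 5 and 14 were lower (6.79% and 15.5% lower). Cdc20 was higher for CX5461 in polysomal RNA, with 17.9% of genes higher. The settings differ in clone, host, culture, time and library set, and these cannot be told apart.

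Other genes of the same machinery were counted in the same way, where 6.25% of all genes were higher and 5.46% lower in everolimus lines and 7.2% higher and 6.31% lower in combination lines. Calls of these lists with the GC correction or with 1 line left out are not given here. For the members in the input of everolimus lines, that correction left only Cenpf called. Their count ran from 0 to 11 with 1 line left out. In everolimus relapse input, 7 of 28 other kinetochore and checkpoint genes were lower and none higher (median -0.44), led by Sgol2, which protects centromeric cohesion (-0.96), and Nuf2 of the Ndc80 complex (-0.90). In combination lines 8 of 28 were lower and 2 higher (median -0.51), with the checkpoint protein Mad2l1 at -1.34 ± 0.20 (adjusted p = 0.00268) and Pmf1, a subunit of the Mis12 complex, at 0.74 ± 0.19 (adjusted p = 0.0224). Of 30 other spindle and cytokinesis genes, 6 were lower and 1 higher for everolimus and 9 lower for the combination, led in both by the chromosome-aligning motor Kif18a (-1.15 and -1.27). Of 13 condensin and cohesin genes, 6 and 5 were lower and none higher, with medians of -0.74 and -0.73 and the condensin subunit Smc2 at -1.03 and -0.94. Of 15 subunits and regulators of the anaphase-promoting complex, 1 was lower in both, the inhibitor Fbxo5 (-0.64 and -0.78), and 2 and 1 were higher, among them the scaffold Anapc2 (0.51 and 0.57).

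Among 21 regulators of mitotic genes, 2 were lower and 2 higher in everolimus lines and 4 lower and 1 higher in combination lines in the relapse input. Foxm1, the forkhead factor that activates mitotic genes, was lower in the input of combination lines (-0.72 ± 0.14, adjusted p = 0.00657) and in their polysomal RNA (-1.0 ± 0.12, adjusted p = 0.00214). It was also lower in CX5461 lines (input -0.54 ± 0.13, adjusted p = 0.03, and polysomal RNA -1.09 ± 0.12, adjusted p = 0.00184). A Foxm1 value without CX5461 lines 14 and 39, whose polysomal libraries stood apart, is not given here. The repressor E2f7 fell alongside Foxm1 in the polysomal RNA of combination lines (-1.33 ± 0.12, adjusted p = 0.000758). In everolimus lines the MuvB subunits Lin9 (-0.83) and Lin54 (-0.66) were lower and Mybl2, B-Myb, was higher (0.46 ± 0.13, adjusted p = 0.0445). Of 12 other G2 entry kinases and phosphatases, 3 were lower for everolimus, among them the checkpoint kinase Chek1 (-0.95), which was also the 1 lower gene for the combination (-0.92). DNA replication genes, which act before G2, showed no lean to either side, with 4 of 47 lower and 4 higher for everolimus and 3 lower and 4 higher for the combination (medians -0.02 and -0.11). In acute combination mice 6 of these 47 were lower in the input and none higher (median -0.15, 4.17% of all genes lower), led by the flap nuclease Fen1 (-0.46), while 1 of the 28 kinetochore genes, Casc5 (0.34), and none of the 13 condensin and cohesin genes passed.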

How the data were processed

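Input and polysomal RNA was sequenced from 24 acute mice and 12 relapse lines (single-end, 50 bp, ribodepleted, per the labels' protocols). The deposited values are raw read counts per gene in 4 tables, made by the authors with TopHat2, HTSeq and GRCm38, per the submitters' processing notes, whose versions, strand setting and annotation release are not given in the sources used here. Rows that name no gene were left out of totals and tests, and their share in acute libraries is given beside the result it touches. Library totals were 17.1 to 24.7 M counts in the acute input, 11.5 to 20.9 M in the acute polysomal RNA and, for the relapse lines, 14.6 to 26 M in input and 15.5 to 30.4 M in polysomal libraries.

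Each table was fitted on its own with edgeR 4.0.16 in R 4.3.3 (TMM scaling, filterByExpr, the 4 treatments in 1 quasi-likelihood fit), with p-values adjusted by Benjamini-Hochberg over all genes tested and called under 0.05. A standard error is the size of the log2 fold change divided by the square root of F. Translational efficiency was the interaction of fraction and treatment with mouse or line as a block. Trends with GC content and length were removed as loess offsets (span 0.3, genes with a mean log2 CPM of at least 2), and these offsets, the run of columns as a term and the joint fit of both settings were added after seeing the data. DESeq2 1.42.0, other size factors, no filter, the compared groups alone, a replicate block and left-out libraries were alternatives. The most alike libraries of 1 group, the inputs of everolimus mice 1 and 3, differed by 1.32 times the median chi-square of sampling noise (mean 2.92). The next lowest median was 2.85 (mean 9.69), for the inputs of CX5461 mice 1 and 5. Whether the inputs of everolimus mice 1 and 3 are independent was not tested. Both were kept, and mouse 3 was left out as an alternative. The tests were tried on simulated counts. The members and lists were chosen with earlier results of these data known. The share of all genes called in the main fits is given beside the members' counts, but it does not correct for that choice. The share of all genes at an unadjusted p, or called under the alternatives, is not given here. Members named with values passed in a drug comparison with the controls or had 1 of the 5 largest log2 fold changes in the relapse everolimus or combination comparisons. Cdc20 and Plk1 were chosen after their values were seen. From the other lists, up to 2 called genes in each direction are named. Promoter sequences are from RefSeq.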

Additional observations from a re-analysis of the deposited data

Results flagged for a closer look

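In the acute input, Cenpf stood apart in 1 library, that of CX5461 mouse 3, at a log2 CPM of 6.39, where the nearest CX5461 mouse was at 6 and the farthest at 5.79. The gap was 0.661 of the range of the 6 mice. Of 48 groups of 6 mice looked at in this way 1 was flagged, where chance flags about 5%, or 2.4 groups. The CX5461 mice gave no call for Cenpf.

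The drug effects of the relapse lines and the acute mice differed for part of the members in the joint edgeR fit over all genes. For the combination 17 of 34 differed for input and 12 for polysomal RNA, with member medians of -0.48 and -0.36 for the effect in relapse lines minus that in acute mice. For everolimus it was 18 (median -0.63) and 3 (median -0.28), and for CX5461 5 (median -0.22) and 15 (median -0.35). The medians over all genes were -0.12 and 0 for the combination, -0.11 and -0.03 for everolimus, and -0.05 and -0.03 for CX5461. Clone, host, culture, time and library set differ between the settings and cannot be told apart.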

How the results depend on the processing

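Counts are members called, without the share of all genes called in the same setting. The causes of the changes were not tested. No member named with a call in a comparison with controls changed sign. The member median crossed 0 in 8 comparisons, none with a member called, most widely in the relapse polysomal RNA for the combination against CX5461 (-0.15 to 0.1) and against everolimus (-0.21 to 0.04) and for everolimus against CX5461 (-0.03 to 0.29). With DESeq2, the acute input gave 7 for the combination and 5 for the combination against CX5461, and the acute polysomal RNA 2 for everolimus against CX5461. The relapse input then gave 16 for everolimus, 16 for the combination and 3 for everolimus against CX5461, and the relapse polysomal RNA 16 for CX5461, 1 for everolimus, 11 for the combination, 2 for the combination against CX5461, 1 for the combination against everolimus and 8 for everolimus against CX5461. With no count filter, the combination against CX5461 gave 1 in the acute input, everolimus against CX5461 0 in the acute polysomal RNA and 2 in the relapse input, the combination 3 in the relapse polysomal RNA, and the translational efficiency of CX5461 lines 1. With the compared groups alone, the counts were 1 (acute input, combination), 0 (acute polysomal, everolimus against CX5461), 6, 5 and 3 (relapse input, everolimus, combination, everolimus against CX5461), and 1 and 15 (relapse polysomal, CX5461, combination). Without vehicle mouse 6 and combination mouse 3, the acute combination count was 9 for input and 10 for polysomal RNA, and against CX5461 it was 5 for input. With the acute polysomal libraries over 10% Lars2 and Yam1 left out, the combination against CX5461 gave 5 and everolimus against CX5461 gave 0, which was also its count without everolimus mouse 3. With the run of columns as a term, the relapse input gave 8, 23 and 18 for CX5461, everolimus and the combination and 9 for everolimus against CX5461, and the polysomal RNA 1, 2 and 17, and 2 for the combination against everolimus. Without CX5461 lines 14 and 39 the polysomal counts were 1 for CX5461, 15 for the combination and 1 for the combination against everolimus. With the GC correction, the counts were 6 for the acute input combination against CX5461, 1 for everolimus and 2 for everolimus against CX5461 in the relapse input, and 3 for the combination and 2 for everolimus against CX5461 in the relapse polysomal RNA, and with the length correction 14 for the relapse input combination. Without a block on mouse, 15 members differed between fractions in vehicle mice. The joint polysomal everolimus count was 1 with RLE size factors and 1 with no filter. Same-numbered mice did not deviate together (mean r 0.048 for input and -0.014 for polysomal RNA, best with their own number in 4 and 5 of 24 libraries), so the replicate block is an alternative, which gave 2 calls for the polysomal combination, where Kif23 and Nek2 lost theirs, and 2 for everolimus against CX5461. Cenpe lost its input call under it. No paired analysis was possible in the relapse lines because treatments share no numbers. Leaving out 1 line at a time, the relapse input counts ranged from 0 to 5 for CX5461, 0 to 11 for everolimus, 3 to 15 for the combination and 0 to 5 for everolimus against CX5461, and stayed at 0 for the combination against CX5461 and against everolimus. The polysomal ranges were 2 to 21, 0 to 0 and 1 to 15 for the 3 drugs, 0 to 13 for the combination against CX5461, 0 to 3 against everolimus and 0 to 19 for everolimus against CX5461. For translational efficiency the range was 0 to 7 for CX5461 and 0 to 0 for everolimus and the combination, and between fractions it was 26 to 28. Each member had 75 or more counts in each relapse input library, and the relapse counts rest on 3 lines a group.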
